A study of Mus musculus with 28 samples.

Results

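Levels of 10 immediate early genes were followed over 28 Affymetrix mouse arrays of dendritic cells from mouse spleen, cells that take up antigen and present it to T cells. They were the AP-1 genes Fos, Fosb, Fosl2, Jun, Junb and Jund, the related factor Atf3, and the early response genes Ier2, Ier3 and Dusp1. They were chosen by symbol among probe sets annotated to exactly 1 gene. Each matched 1 probe set, and all 10 were among the 10452 genes tested, of 19938 genes with such a probe set. The series concerned oxidative stress and hypertension, and its cells came from C57BL6/J wild-type (WT) mice and from mice lacking NOX2 (GP91 Phox, encoded by Cybb), the superoxide-producing subunit of the NADPH oxidase of phagocytes; all mice were 3 months old. NOX2 knockout (KO) cells formed 2 groups, angiotensin II (Ang II, n = 4) and vehicle (n = 3). WT cells formed 4 groups: Ang II plus the pair hydralazine and hydrochlorothiazide (Hyd/HCTZ, n = 6), Ang II with 2-hydroxybenzylamine (2-HOBA, n = 4), Ang II alone (n = 4) and vehicle (n = 7). Ang II is a vasoconstrictor peptide, hydralazine is a vasodilator, hydrochlorothiazide is a diuretic, and 2-HOBA scavenges reactive dicarbonyls. The labels name no promoter or cell type that restricts the deletion. The labels leave unclear whether the mice or the isolated cells received the agents, and no dose, duration, sort or gate was found in them. Replicates were labelled biological, without naming separate animals, so p values measure the spread between these arrays.

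AP-1 is a dimer of a Fos and a Jun protein, both basic leucine zipper (bZIP) factors, that binds promoters and enhancers of genes of growth, stress and inflammation. Immediate early genes need no new protein synthesis for their induction: kinases of the MAP kinase cascades act on factors already bound at the promoter, transcripts appear rapidly and decay rapidly, and feedback genes such as Dusp1 end the signal. In immune cells the set is known to respond both to receptors that activate the cell and to the mechanical, thermal and enzymatic stress of taking a tissue apart.

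A level is given as the deposited log2 value, on which a difference of 1 is a 2-fold difference, and levels of different genes are not set against each other because probe sets differ in brightness. Shared dendritic cell markers averaged between 8.45 and 9.66 on all arrays except the one labelled WT vehicle replicate 2, where they averaged 7.95. Markers of B cells, another spleen cell type, averaged 5.80 to 9.12 over all arrays (11 of 12 listed genes tested). Cybb measured 6.41 to 7.18 on the KO arrays and 8.35 to 9.75 on the WT arrays, except for 6.34 on the array labelled WT vehicle replicate 2. That array also had the lowest mean correlation with the other arrays, 0.852. Its interquartile range of values was 1.92, beside 2.43 to 3.44 on the others, and its housekeeping genes averaged 8.11, beside 8.65 to 9.72. The part of this narrow range in its low Cybb level was not tested. The place of the Cybb probes relative to the deleted part was not given in the sources used here. Probe sets taken as controls were used to divide the arrays into 3 sets, by fixed cuts along their first principal component. Scores were at most -19.4 in set 3, -7.31 to 2.47 in set 2 and at least 7.48 in set 1. WT vehicle replicate 2 scored 25.95 and the next array of set 1 scored 14.39, a wider gap than that between sets 1 and 2. Set 1 held all KO arrays, WT vehicle 1 to 3 and WT Ang II 1 and 2. Set 2 held the remaining arrays of those WT groups and all 2-HOBA arrays, and set 3 held the 6 Hyd/HCTZ arrays and no others. Set and group can therefore not be told apart for Hyd/HCTZ.

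Promoter windows from 250 bases before to 50 bases after the annotated start are shown for 4 members that varied together from array to array (Fos, Fosb, Atf3 and Dusp1) and for Fosl2, which did so least. Sequences are RefSeq's (GRCm38.p6), written 5′ to 3′ in the direction of the gene, and capitals mark TGACG on either strand, the half-site of the cyclic AMP response element (CRE). Fos lies at chr12:85473640-85473939 on the plus strand, Fosb at chr7:19309996-19310295 on the minus strand, Atf3 at chr1:191183284-191183583 on the minus strand, Dusp1 at chr17:26508423-26508722 on the minus strand and Fosl2 at chr5:32136222-32136521 on the plus strand.
Fos: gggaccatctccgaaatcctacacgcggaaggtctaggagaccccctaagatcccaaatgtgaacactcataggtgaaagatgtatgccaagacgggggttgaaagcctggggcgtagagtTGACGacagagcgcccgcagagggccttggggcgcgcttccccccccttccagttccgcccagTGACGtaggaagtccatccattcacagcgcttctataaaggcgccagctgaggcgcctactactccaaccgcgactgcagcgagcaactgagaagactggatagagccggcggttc
Fosb: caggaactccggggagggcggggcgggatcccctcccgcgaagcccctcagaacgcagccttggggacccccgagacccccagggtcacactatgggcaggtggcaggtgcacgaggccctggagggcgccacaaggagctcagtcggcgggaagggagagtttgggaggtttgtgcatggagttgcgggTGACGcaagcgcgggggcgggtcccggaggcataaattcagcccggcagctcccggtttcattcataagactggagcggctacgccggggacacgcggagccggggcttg
Atf3: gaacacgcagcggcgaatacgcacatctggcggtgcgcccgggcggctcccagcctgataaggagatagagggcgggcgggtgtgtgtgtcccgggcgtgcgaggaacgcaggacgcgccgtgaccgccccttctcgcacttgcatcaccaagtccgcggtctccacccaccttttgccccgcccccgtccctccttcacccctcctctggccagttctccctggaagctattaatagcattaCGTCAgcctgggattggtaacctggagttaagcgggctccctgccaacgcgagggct
Dusp1: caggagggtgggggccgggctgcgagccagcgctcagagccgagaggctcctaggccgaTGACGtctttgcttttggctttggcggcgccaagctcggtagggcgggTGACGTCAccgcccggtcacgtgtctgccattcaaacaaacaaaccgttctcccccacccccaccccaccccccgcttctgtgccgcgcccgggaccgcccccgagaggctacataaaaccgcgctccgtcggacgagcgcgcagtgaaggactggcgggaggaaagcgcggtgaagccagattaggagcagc
Fosl2: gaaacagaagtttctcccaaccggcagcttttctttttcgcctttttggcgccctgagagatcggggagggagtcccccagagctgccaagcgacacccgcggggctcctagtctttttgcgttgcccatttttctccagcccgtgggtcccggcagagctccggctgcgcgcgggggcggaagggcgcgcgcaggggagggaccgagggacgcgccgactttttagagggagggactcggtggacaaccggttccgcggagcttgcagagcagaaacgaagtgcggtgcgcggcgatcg

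Windows were found for 9 of the 10 genes, all except Ier2. TGACG occurred in 5 of these 9 (Fos, Fosb, Junb, Atf3 and Dusp1), against 20.8% of all 32851 RefSeq promoter windows of that length. The window of Jun, which also varied with most other members from array to array, held none. The Fos window held it at positions -129 and -66 and a TATAAA at -33, counted from the start. The full CRE, TGACGTCA, which contains 2 overlapping half-sites, was present in Dusp1 at -143 and in 1.79% of all windows. The AP-1 site TGACTCA was in none of the 9 windows and in 5.2% of all windows, and the CArG box bound by serum response factor was in none and in 1.63%. The Sp1 box GGGCGG was in 7 of the 9 windows and in 35.7% of all windows. These are matches of letters within the windows, and sites outside them were not searched. The member windows had 46.7% (Jund) to 68.3% (Fosb) G and C, and the median of all windows was 52.7%.

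**Figure D1:**
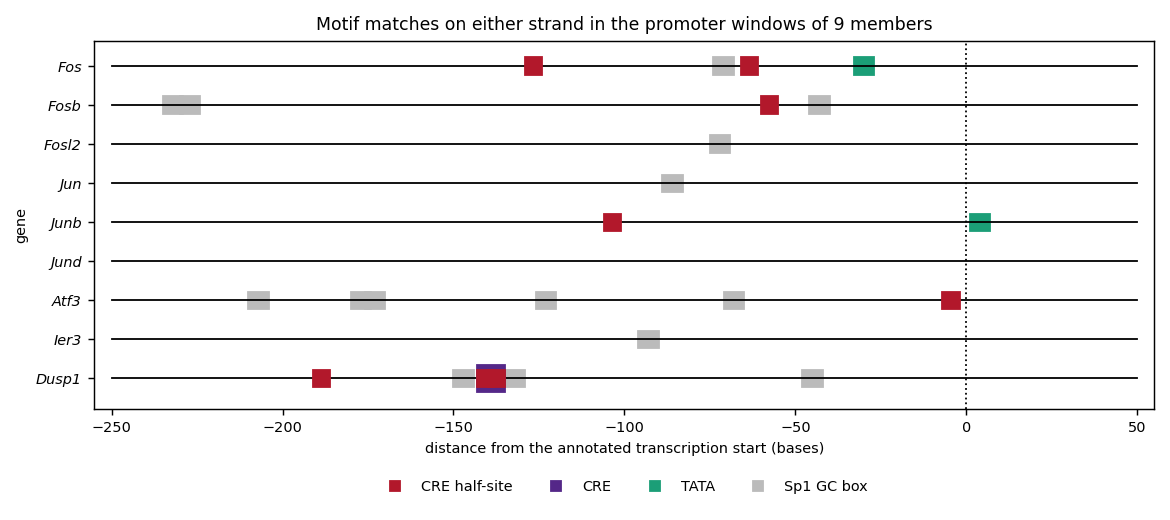
Motif matches on either strand in 9 member promoters, by distance in bases from the annotated start. Half-sites (red) lie in Fos, Fosb, Junb, Atf3 and Dusp1, the full CRE (purple) lies at -143 in Dusp1, and Jund holds none of the motifs drawn.

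Fos, which pairs with Jun proteins in the classical AP-1 dimer, measured 8.34, 8.42, 8.51 and 8.52 in KO Ang II cells, against 8.53, 8.46 and 8.51 in KO vehicle cells. In WT cells it ran from 9.99 to 10.33 with Hyd/HCTZ (median 10.13) and was 8.77, 7.86, 8.84 and 7.22 with 2-HOBA. With Ang II alone it was 9.16, 9.87, 6.68 and 9.07, and in WT vehicle cells it ran from 8.20 to 9.38 (median 8.96). All Hyd/HCTZ arrays lay above all other arrays, the KO arrays were tightly grouped, and a single Ang II array lay more than 2 units below the rest of its group.

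Fosb, a Fos relative known for its long-lived splice form in neurons, measured 7.87, 8.04, 7.60 and 7.57 in KO Ang II cells, against 7.35, 7.17 and 7.78 in KO vehicle cells. In WT cells it ran from 9.83 to 10.53 with Hyd/HCTZ (median 10.25), and was 9.15, 7.63, 9.29 and 6.25 with 2-HOBA. With Ang II alone it was 9.74, 10.27, 5.85 and 9.79, and in WT vehicle cells it ran from 8.15 to 9.46 (median 9.33). With Ang II alone in WT cells, replicate 3 (5.85) lay below all KO arrays and the rest of the group lay above them. The 2-HOBA arrays lay below, inside and above the KO range.

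Fosl2 encodes Fra-2, a Fos relative that lacks the strong activation domain of Fos. It measured 6.24, 6.10, 5.63 and 5.67 in KO Ang II cells, against 5.99, 5.27 and 5.03 in KO vehicle cells. In WT cells it ran from 7.19 to 8.40 with Hyd/HCTZ (median 8.17), was 5.68, 5.40, 5.56 and 5.15 with 2-HOBA, 6.69, 5.35, 5.46 and 6.12 with Ang II alone, and ran from 5.69 to 6.74 in vehicle cells (median 6.06). The Hyd/HCTZ arrays stood apart and the remaining 5 groups overlapped.

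Among the Jun subunits, Jun, the subunit activated by JNK phosphorylation, ran from 8.51 to 9.21 with Hyd/HCTZ, 5.80 to 8.14 with 2-HOBA, 6.02 to 8.79 with Ang II alone and 6.69 to 8.54 in WT vehicle cells. Its KO arrays lay between 7.08 and 7.68 with Ang II and between 7.57 and 7.88 with vehicle. Junb, often a weaker activator than Jun, ran from 7.54 to 7.97 with Hyd/HCTZ. With Ang II alone it was 7.95, 7.73, 5.87 and 7.52, so these groups overlapped in part. It ran from 6.36 to 7.13 with 2-HOBA and from 7.01 to 7.85 in WT vehicle cells. Its KO arrays lay between 6.74 and 7.21 with Ang II and between 6.56 and 6.98 with vehicle. Jund, the least inducible Jun gene and present in most resting cells, went the other way from the rest. It ran from 7.85 to 8.21 with Hyd/HCTZ (median 8.02), and was 8.40, 8.24, 8.33 and 8.16 with 2-HOBA and 8.79, 9.22, 7.84 and 8.53 with Ang II alone. WT vehicle cells had 8.49 to 8.83 (median 8.69).

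Atf3, a stress-induced bZIP factor that restrains inflammatory genes in macrophages, measured 7.55, 7.62, 7.03 and 6.78 in KO Ang II cells, against 7.25, 7.01 and 7.43 in KO vehicle cells. In WT cells it ran from 9.69 to 10.65 with Hyd/HCTZ (median 10.19), and was 8.45, 6.30, 8.90 and 5.86 with 2-HOBA. With Ang II alone it was 9.55, 9.51, 5.78 and 9.23, and WT vehicle cells had 7.70 to 8.98 (median 8.58). The 2-HOBA arrays fell into a high and a low pair, and the single low Ang II array was the lowest of all 28.

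Dusp1, the phosphatase that switches off p38 and JNK, measured 9.95, 10.38, 10.29 and 10.26 in KO Ang II cells, against 9.99, 9.70 and 9.88 in KO vehicle cells. In WT cells it ran from 10.97 to 11.09 with Hyd/HCTZ (median 11.02), was 10.34, 9.04, 10.37 and 8.21 with 2-HOBA, 10.46, 10.53, 8.62 and 10.60 with Ang II alone, and ran from 9.60 to 10.94 in vehicle cells (median 10.49). Ier2, a nuclear early response protein, ran from 8.17 to 8.66 with Hyd/HCTZ, 6.55 to 7.23 with 2-HOBA, 6.33 to 7.63 with Ang II alone and from 5.71 over a range of 2.30 in WT vehicle cells (median 7.15). Ier3, a stress-induced regulator of cell survival, ran from 7.21 to 7.70 with Hyd/HCTZ, 5.09 to 6.20 with 2-HOBA, 4.91 to 7.28 with Ang II alone and 5.79 to 7.32 in WT vehicle cells. KO arrays of these early response genes lay inside the range of the WT arrays.

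**Figure D2:**
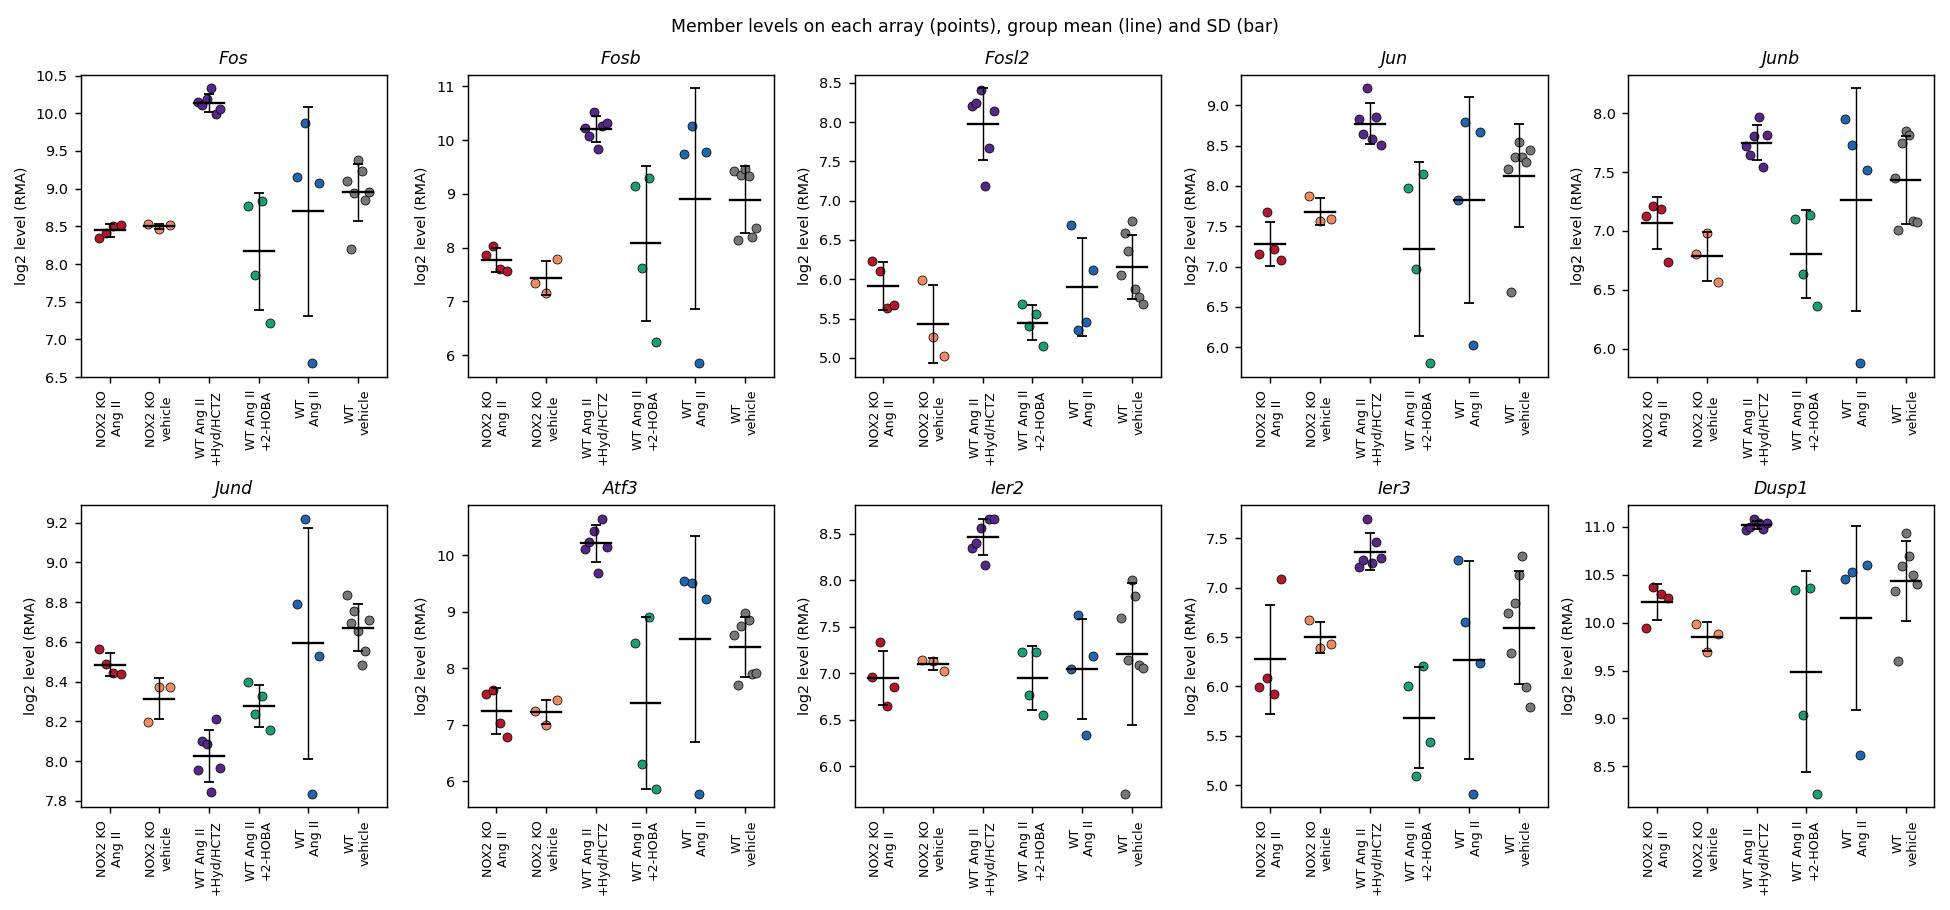
Log2 level of each member on each array (points) by group, with the group mean (line) and SD (bar). The 6 Hyd/HCTZ arrays lie above the other 22 for Fos, Fosl2, Atf3, Ier2 and Dusp1, and 1 WT Ang II array lies far below the rest of its group for Fosb and Atf3.

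By group mean, Hyd/HCTZ came first for 9 of the 10 genes, and last for Jund. The groups next in order overlapped in their arrays for every gene, except KO Ang II and KO vehicle for Jund and the step below Hyd/HCTZ for Fos, Fosl2, Atf3, Ier2 and Dusp1. The 6 Hyd/HCTZ arrays lay above all 22 others for these 5 genes, while 20.2% of all tested genes did the same. The lowest mean was in the 2-HOBA group for Fos, Jun, Ier2, Ier3 and Dusp1 and in the KO vehicle group for Fosb, Fosl2, Junb and Atf3.

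With Hyd/HCTZ added to Ang II, 7 of the 10 genes passed the test (limma, Benjamini-Hochberg adjusted p below 0.05 over all tested genes): 6 rose and Jund fell. This comparison called 52.7% of all tested genes, 40.8% higher and 11.9% lower, so most genes differed and the members' count has to be read against that. The median of all tested genes was itself 0.32 higher with Hyd/HCTZ, and the members' median difference was 1.20. The size and sign of this shift depended on the genes kept. It was -0.15 over all 19938 genes without a filter on low values, and 0.64 over genes above 7 on at least 3 arrays. Relative to the shift of all genes, 5 members passed (4 rose and 1 fell), where 48.6% of all genes did, 23.7% higher and 25% lower. Bulk RNA cannot tell a lower share of one cell type from less RNA per cell.

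Fosl2 averaged 7.97 ± 0.46 with Hyd/HCTZ and 5.90 ± 0.62 with Ang II alone (SD, n = 6 and 4), a difference of 2.07 (SE 0.26, limma adjusted p = 3.28e-07) or 4.2-fold. Relative to the shift it was 1.75 higher, with a 95% interval from 1.22 to 2.29. Atf3 averaged 10.21 ± 0.32 with Hyd/HCTZ and 8.52 ± 1.83 with Ang II alone, 1.38 higher relative to the shift (limma adjusted p = 0.0359), and its interval ran from 0.27 to 2.48. Fos was 1.12 higher relative to the shift (limma adjusted p = 0.0118) and Ier2 1.10 higher (limma adjusted p = 0.00252). Jund averaged 8.03 ± 0.13 with Hyd/HCTZ and 8.59 ± 0.58 with Ang II alone, and it fell by 0.88 relative to the shift (limma adjusted p = 9.48e-05), although the arrays of the groups overlapped. Ier3 and Dusp1 passed as deposited (adjusted p = 0.00654 and 0.0173, limma) and not relative to the shift (0.0507 and 0.110). Fosb, Jun and Junb passed neither test, with relative differences of 0.98, 0.63 and 0.17.

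All 6 Hyd/HCTZ arrays lay above all 4 Ang II arrays for Fos, Fosl2, Atf3, Ier2 and Dusp1, as they did for 34.4% of all tested genes, and below them for no member and 10% of genes. The Ang II array labelled replicate 3 weighed on these differences. Without it 4 members passed, beside 51.5% of all tested genes: Fos (0.77, limma adjusted p = 0.0151), Fosl2 (1.92, 4.2e-06), Ier2 (1.18, 0.002) and Jund (-0.82, 4.08e-05). Without it Atf3 was 0.78 higher (adjusted p = 0.128), Ier3 0.64 (0.0742) and Dusp1 0.49 (0.178), all by limma. Leaving out Ang II replicate 1, 2 or 4 instead gave 9, 8 and 9 members, beside 43.9%, 44.6% and 51.2% of all tested genes, and Jund did not pass without replicate 2 (-0.36, limma adjusted p = 0.0665). After quantile normalization 4 members passed, beside 41.5% of all tested genes, Atf3 no longer among them (1.29, adjusted p = 0.0602), and Junb turned to -0.01.

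Other genes of the pathway were counted relative to the shift, by which 23.7% of all tested genes rose with Hyd/HCTZ and 25% fell. Of 28 tested genes in a list of other immediate early genes, 14 rose and 1 fell, among them Nr4a3 (3.04 higher), Egr2 (2.95) and Plk2 (2.31). Of 20 AP-1 related bZIP genes 6 rose and 1 fell, led by Crem (3.01), an early cyclic AMP response factor, Maff (2.36) and Nfe2l2 (1.78), the oxidative stress factor NRF2. Of 18 MAP kinase phosphatases and feedback genes 9 rose and 2 fell, with Gadd45b 2.78 higher, Dusp3 1.06 higher and Gadd45a, a stress-induced growth arrest gene, at -1.18. Of 18 upstream MAP kinases and serum response factors 6 rose and none fell, with Map2k3 1.07, Srf 0.81 and Map2k2 0.60 higher. The shares that rose among the bZIP genes and the upstream genes were near that of all tested genes. Of 18 reported AP-1 targets of myeloid cells 10 rose and 2 fell, among them Ccl22 (2.50), Il12b (2.14) and Cd83 (2.00), genes of activated dendritic cells. The median relative difference was 1.09 for these targets and 0.63 for the other immediate early genes, beside 0 for all tested genes by construction.

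Heat shock genes and cell type markers were counted in the same way, beside the same 23.7% of all tested genes that rose and 25% that fell. Relative to the shift 5 of 9 heat shock genes rose and none fell, Hspa1a, whose probes may also detect its near-identical copy Hspa1b, by 3.81, Dnajb1 by 2.20 and Bag3 by 1.01, and 4 of 10 housekeeping genes rose and 1 fell, with Pgk1 1.17, Ppia 0.77 and Rplp0 0.64 higher. All 10 markers of type 1 dendritic cells rose, with a mean level of 8.26 to 8.52 per array with Hyd/HCTZ and 6.36 to 7.06 with Ang II alone. Monocyte markers rose for 6 of 8 genes (8.34 to 8.99 with Hyd/HCTZ, 6.81 to 7.50 with Ang II alone), and red pulp macrophage markers for 7 of 12 (7.55 to 9.06 with Hyd/HCTZ, 6.69 to 7.69 with Ang II alone). B cell markers fell for 10 of 11 genes (5.80 to 6.87 with Hyd/HCTZ, 7.75 to 8.73 with Ang II alone), neutrophil markers for 6 of 9 (5.56 to 6.67 with Hyd/HCTZ, 6.31 to 7.99 with Ang II alone) and erythroid markers for 7 of 7 (3.98 to 4.61 with Hyd/HCTZ, 5.15 to 6.61 with Ang II alone). Among the other marker lists, 6 of 10 shared dendritic cell markers rose and none fell, 3 of 9 type 2 dendritic cell markers rose and 1 fell, and 4 of 8 plasmacytoid dendritic cell markers rose and none fell. Of 10 T and NK cell markers 1 rose and 6 fell, and of 5 platelet markers none rose and 1 fell. Some markers also stand in a pathway list, so these counts are not separate. They are Nr4a1 (monocyte and immediate early), Batf3 (type 1 and bZIP), Hmox1 (red pulp macrophage and AP-1 target) and Itgax (shared dendritic cell and AP-1 target). The part of these cell types, and of the array set, in the members' differences was not tested.

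**Figure D3:**
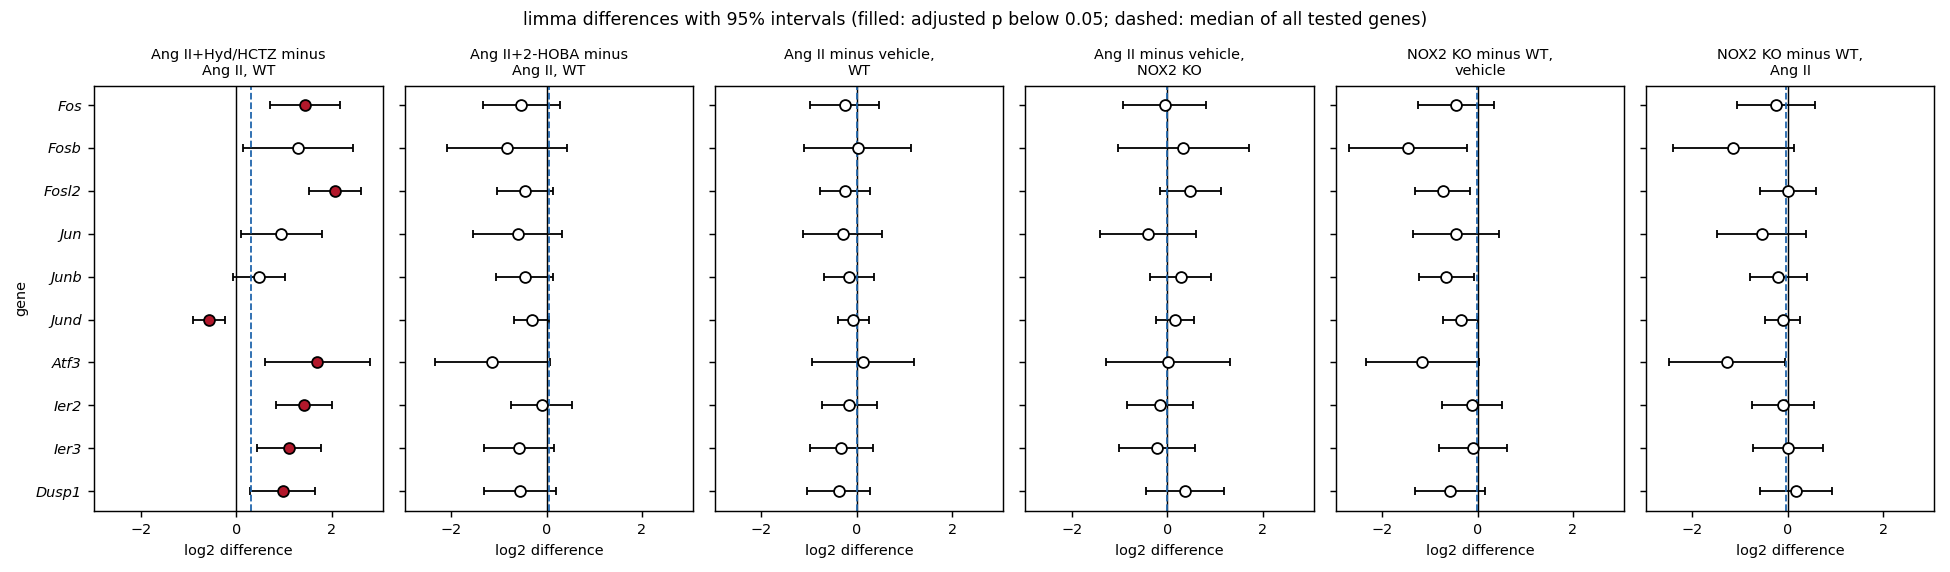
Log2 differences of the 10 members in 6 comparisons, with 95% intervals from limma; filled points passed at an adjusted p below 0.05 and the dashed line is the median of all tested genes. Filled points appear with Hyd/HCTZ, where 6 lie to the right and Jund lies to the left, and in no other panel.

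Between KO and WT cells without Ang II, no member passed, and 1 gene (0.00957% of those tested) did (657 genes and 3 members had an unadjusted limma p below 0.05). All 10 members were lower in KO vehicle cells, with a median difference of -0.52, beside -0.02 for all tested genes. Fosb averaged 7.43 ± 0.32 in KO vehicle cells and 8.90 ± 0.62 in WT vehicle cells (SD, n = 3 and 7), a difference of -1.46 with a 95% interval from -2.70 to -0.23 (limma adjusted p = 0.731). Atf3 averaged 7.23 ± 0.21 in KO vehicle cells and 8.38 ± 0.53 in WT vehicle cells, a difference of -1.15 (interval -2.33 to 0.02, limma adjusted p = 0.804). Fosl2 differed by -0.73 and Junb by -0.65 (limma adjusted p = 0.682 and 0.758). For Fosb, Junb, Jund and Atf3 all 3 KO vehicle arrays lay below all 7 WT vehicle arrays, which 0.737% of all tested genes also did. Without the array labelled WT vehicle replicate 2, all 10 remained lower, Fosb at -1.59 and Atf3 at -1.27 (limma adjusted p = 0.187 and 0.266). Within array set 1, which holds WT vehicle replicate 2, 9 of 10 were lower, Fosb at -1.54, Atf3 at -1.12 and Ier2 at 0.28. Ier2 measured 5.71 on that array, and its difference was -0.36 in the fit without it.

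Between KO and WT cells with Ang II no member passed either, and 5 genes (0.0478%) did (714 genes and 1 member at an unadjusted limma p below 0.05). Atf3 averaged 7.24 ± 0.41 in KO Ang II cells and 8.52 ± 1.83 in WT Ang II cells (SD, n = 4 each), a difference of -1.27 (limma adjusted p = 0.674). Fosb averaged 7.77 ± 0.22 in KO Ang II cells and 8.91 ± 2.05 in WT Ang II cells, a difference of -1.14 (adjusted p = 0.779, limma). The remaining members differed by -0.54 to 0.17. Without the WT Ang II array labelled replicate 3, all 10 members were lower in KO cells, Fosb by -2.16 and Atf3 by -2.19 (limma adjusted p = 0.0685 each). Array set 1 holds 4 KO and 2 WT arrays of these groups and also lacks WT Ang II replicate 3. Within it Fosb at -2.23 (limma adjusted p = 0.00761) and Atf3 at -2.28 (0.00394) passed, 2 of the 16 genes (0.153% of those tested) that did.

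Adding 2-HOBA to Ang II left no member past the threshold and called 0 genes by limma (379 genes and 0 members at an unadjusted p below 0.05). All 10 members were lower on average, with a median difference of -0.54, beside 0.05 for all tested genes, and the groups overlapped for each, while 1.8% of all genes had all 2-HOBA arrays above all Ang II arrays and 1.06% had all below. Atf3 averaged 7.38 ± 1.52 with 2-HOBA and 8.52 ± 1.83 with Ang II alone (SD, n = 4 each), a difference of -1.14 (interval -2.35 to 0.07, limma adjusted p = 0.977), and Fosb differed by -0.83 (interval -2.09 to 0.43). Without Ang II replicate 3 the differences were -2.05 for Atf3, -1.85 for Fosb and -1.20 for Fos (limma adjusted p = 0.207 each), and without 2-HOBA replicate 4 they were -0.63, -0.22 and -0.21. Within array set 2, 6 of 10 members were higher with 2-HOBA, with a median of 0.10. The Ang II arrays in that set were replicates 3 and 4 only, so the low replicate 3 weighed heavily there. With replicate 3 left out of the full fit, all 10 members were lower with 2-HOBA (median -1.04).

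Ang II against vehicle called 0 genes in either genotype by limma (266 genes in WT and 296 in KO cells at an unadjusted p below 0.05, with 0 members in each). In WT cells 8 of 10 members were lower with Ang II, with differences from -0.38 (Dusp1) to 0.13 (Atf3). Without Ang II replicate 3, 9 of 10 were higher, Atf3 by 1.05 and Fosb by 1.03 (limma adjusted p = 0.9997 each). Within array set 1, 9 of 10 were higher (median 0.48), and this set holds WT vehicle replicate 2, the lowest of its group for 7 members. Within array set 2, which holds Ang II replicate 3, all 10 were lower (median -0.95). The Ang II arrays were replicates 1 and 2 in set 1 and replicates 3 and 4 in set 2. In KO cells the differences ran from -0.40 (Jun) to 0.48 (Fosl2). Jund was higher on all 4 KO Ang II arrays than on all 3 KO vehicle arrays, as were 2.2% of all tested genes, by 0.17 (interval -0.23 to 0.57). The Ang II effect in KO minus that in WT cells ran from -0.12 (Atf3) to 0.75 (Dusp1), and 0 genes and no member passed (257 genes and 0 members at an unadjusted limma p below 0.05). No gene of the pathway lists passed in any comparison other than Hyd/HCTZ against Ang II alone.

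Inside groups, most of these genes varied more from array to array than other genes. The SD pooled over the 6 groups had a median of 0.57 for the members and 0.32 for all tested genes, and 6 of the 10 lay above the 90th percentile of all genes. Fosb (SD 0.996) ranked 18th and Atf3 (0.949) ranked 22nd of the 10452 genes, while Jund, with 0.24, lay at the 15.9th percentile. Fos had 0.624, Jun 0.723, Dusp1 0.577 and Ier3 0.560, and Fosl2, Junb and Ier2 lay below the 90th percentile.

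The spread was uneven over the groups. With Ang II alone in WT cells the members' median SD was 0.98, beside 0.29 for all genes, and 9 of 10 lay above that group's 90th percentile. With 2-HOBA it was 0.64, beside 0.21, with 6 above. With Hyd/HCTZ it was 0.19, beside 0.18, in KO Ang II cells 0.25, beside 0.27, and in KO vehicle cells 0.16, beside 0.22, with at most 2 members above the 90th percentile in each. WT vehicle cells had 0.48, beside 0.41, with 1 above. Jun, Fos, Fosb, Atf3 and Dusp1 had SDs above the 99th percentile in both the Ang II and the 2-HOBA group of WT cells, and Dusp1 had an SD of 0.05 with Hyd/HCTZ, at the 0.45th percentile.

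**Figure D4:**
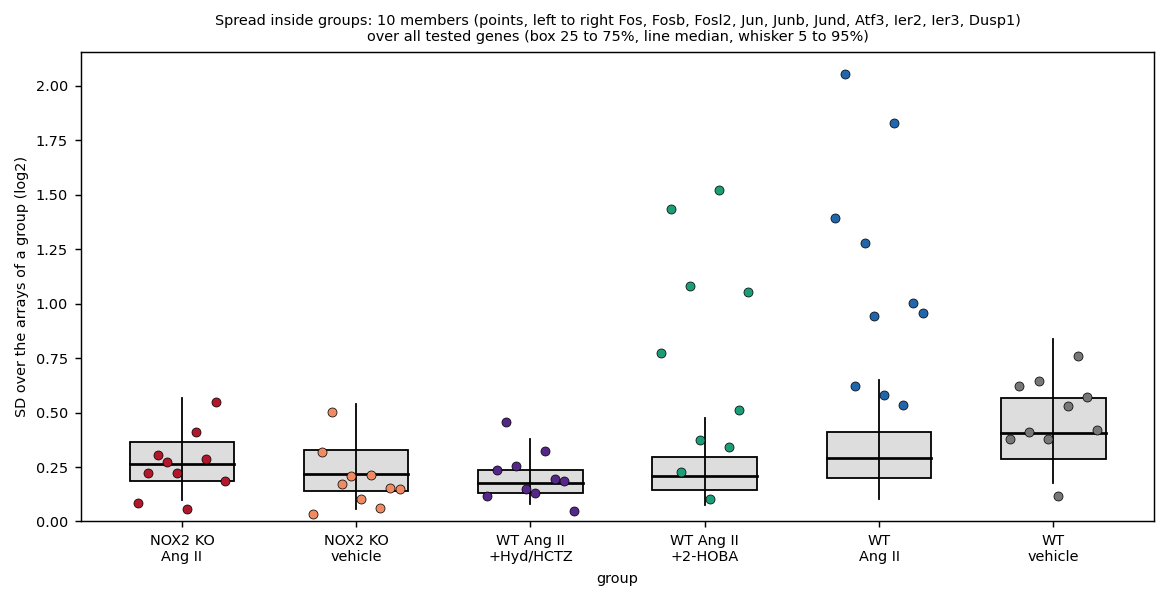
SD over the arrays of each group for the 10 members (points) and for all tested genes (box 25 to 75%, line median, whisker 5 to 95%), in log2 units. Above the whisker lie 6 of the 10 members in the 2-HOBA group, 7 in the WT Ang II group, 1 (Fosl2) in the Hyd/HCTZ group and none in the KO groups.

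A few arrays lay apart from the rest of their groups. On WT Ang II replicate 3 all 10 members lay below their group mean, with deviations from -3.06 to -0.45, and 9 were the lowest of the group, as were 25.5% of all tested genes. On 2-HOBA replicate 4 all 10 also lay below the mean and 9 were lowest, as were 32.5% of all genes, and on 2-HOBA replicate 2 all 10 lay below the mean and 1 was lowest. On WT vehicle replicate 2, where Cybb was low and the range of values narrow, 7 members were lowest, beside 57% of all genes. On WT vehicle replicate 4, 8 members were the highest of the group, beside 11.6% of all genes.

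**Figure D5:**
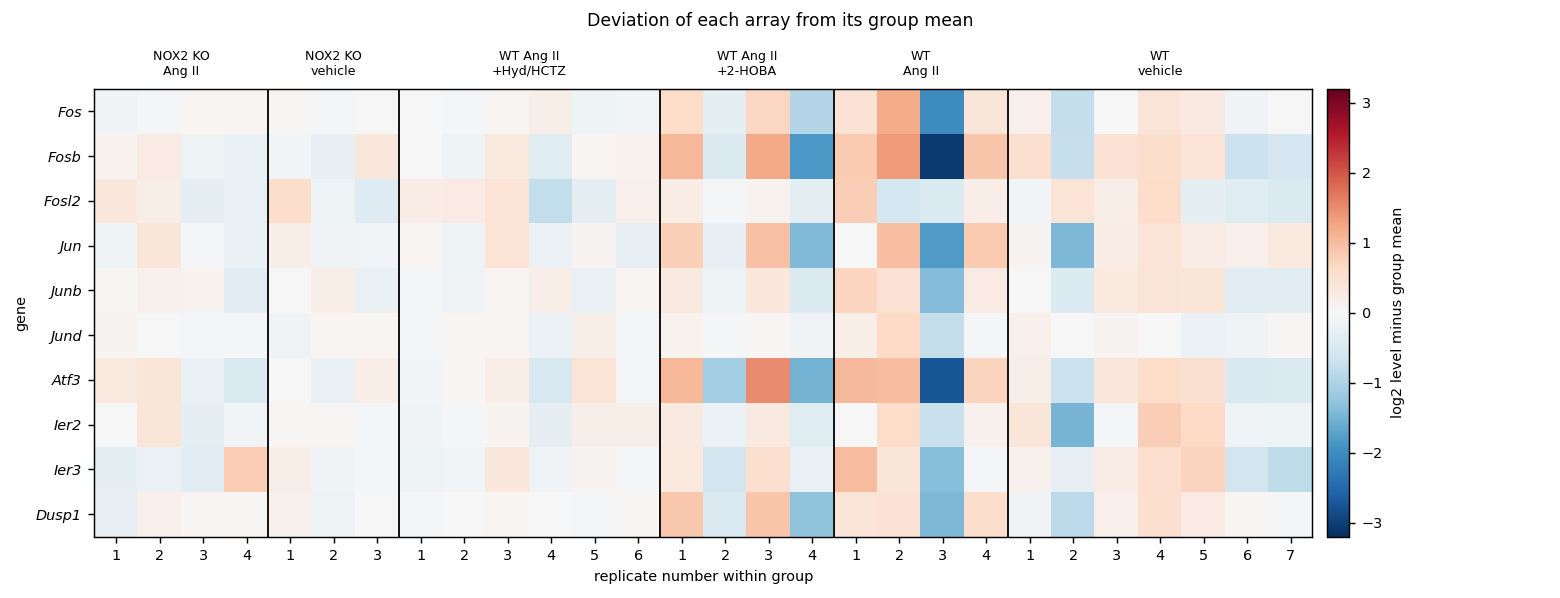
Log2 level minus the group mean for each member (rows) and array (columns, by group and replicate number). WT Ang II replicate 3 and 2-HOBA replicate 4 are blue for all 10 genes, down to -3.06 for Fosb, while the KO and Hyd/HCTZ columns are pale.

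The other immediate early genes were set against the same arrays. Of the 28 tested, 24 were lowest in their group on WT Ang II replicate 3, beside 25.5% of all tested genes, and 22 on 2-HOBA replicate 4, beside 32.5%. On 2-HOBA replicate 2, 5 of the 28 were lowest, beside 32.6% of all genes, and on WT vehicle replicate 2, 23 were, beside 57%. Of 9 heat shock genes 1, 7, 2 and 6 were lowest on these arrays in the same order. WT Ang II replicate 3 also had the highest value of its group for 7 of 9 neutrophil markers and 8 of 11 B cell markers, beside 29% of all tested genes. Also highest there were 6 of 10 housekeeping genes, 5 of 8 plasmacytoid and 3 of 10 type 1 dendritic cell markers and 2 of 9 heat shock genes. Of 10 shared dendritic cell markers, 1 was lowest there. On 2-HOBA replicate 4, 8 of 9 neutrophil markers and 0 of 11 B cell markers were highest, beside 20.4% of all tested genes. On 2-HOBA replicate 2 all 11 B cell markers were highest, beside 20% of all tested genes. There 9 of 12 red pulp macrophage markers were lowest, beside 32.6% of all tested genes. The part of these markers in the members' levels was not tested.

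The members varied together, except for Fosl2. Correlations were taken over deviations from group means on 28 arrays, which share array and RNA preparation, and are descriptions. Each gene's Pearson correlation with the mean of the other members was 0.97 for Fosb, 0.96 for Atf3, 0.93 for Fos, 0.90 for Dusp1, 0.89 for Junb and 0.86 for Jun. It was 0.74 for Ier3, 0.68 for Ier2, 0.66 for Jund and 0.29 for Fosl2 (Spearman 0.33). The closest of the 45 pairs was Fosb with Atf3 (0.97), 35 pairs were above 0.5, none was below 0, and the median was 0.70. Without the 2 arrays farthest from the median, WT Ang II replicate 3 and 2-HOBA replicate 4, the median pair was 0.57, Fosb with Atf3 0.93, Jund with the others 0.36 and Fosl2 0.14. Fosl2 thus combined the largest Hyd/HCTZ difference among the members with the weakest array-to-array tie to them.

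The 6 tested genes outside the list most like the members' mean deviation over the 28 arrays were Kdm6b (Pearson 0.95, Spearman 0.93), a histone H3K27 demethylase, Nr4a1 (0.93 and 0.89), an orphan nuclear receptor, Pim1 (0.93 and 0.85) and Sik1 (0.92 and 0.88), both kinases, Per1 (0.92 and 0.92), a clock gene, and Ppp1r15a (0.91 and 0.86), the GADD34 phosphatase subunit. Over the 10442 non-members the median was 0.09 and the 99th percentile 0.63. Without the 2 farthest arrays Kdm6b stayed at 0.92 and Pim1, the lowest of the 6, was at 0.85. Nr4a1 measured 8.94, 7.62, 9.10 and 6.62 with 2-HOBA and 9.37, 8.85, 6.52 and 9.49 with Ang II alone. The same replicates were low for Nr4a1 as for Fosb and Atf3, which follows from its choice by likeness over these arrays. Nr4a1, Pim1, Sik1 and Per1 also stand in the list of other immediate early genes, and Ppp1r15a in that of feedback genes.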

How the data were processed

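The authors deposited 1 log2 value per probe set and array; the submitters' processing notes name RMA and Partek 6.6, without their roles. The RMA version and its settings are not given in the sources used here. RMA compresses the differences of dim probe sets, and folds there are likely too small. No detection calls were used. Precision is set by the 3 to 7 arrays of a group and by a spread per gene pooled over all 6 groups. For Fosb the pooled SD was 0.996, beside 0.32 in the KO vehicle and 0.62 in the WT vehicle group. With only the compared arrays in the fit, no member passed in KO against WT cells. That fit called 1 gene with vehicle and 14 with Ang II.

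Gene names came from the platform annotation (21789 of 35556 with 1 symbol), with RefSeq GRCm38.p6 names matched for 21698. The probe set with the highest mean was kept for each gene. Genes that exceeded 5 on 3 or more arrays entered limma 3.58.1 in R 4.3.3 (6 group means in 1 fit of 28 arrays, lmFit and eBayes, two-sided, Benjamini-Hochberg adjustment over 10452 genes, called below 0.05). "Relative to the shift" subtracts the median difference of all tested genes. The script was tested on simulated data.

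The members, lists and array sets were chosen with earlier results of these data known. The array sets come from fixed cuts along the first principal component of 998 probe sets (30.2% of their variance). These probe sets have no gene symbol and were taken as controls by their identifiers. Named genes were all members in each comparison, the 6 non-members most like them, and up to 3 called genes with the smallest p of each function list. Some KO titles write Ang I where their descriptions write Ang II, which was followed. Same-numbered arrays of different groups correlated by -0.35 to 0.37 in their deviations, so replicate numbers were not taken as pairs. Alternatives were other filters, normalizations, weights, blocks, array sets and each array left out.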

Additional observations from a re-analysis of the deposited data

Results flagged for a closer look

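Of 50 sets of 4 to 7 arrays (10 genes by 5 groups), 6 held an array whose gap to the nearest other was large against the range of its group (Dixon's criterion at 95%). Chance gives about 1 in 20 for a single set. The genes share arrays and varied together, so the 6 are not separate events and no excess can be read from their number. WT Ang II replicate 3 accounted for 3 of them. Fosb was 5.85 there and 9.74 on the nearest array, Atf3 was 5.78 with the nearest at 9.23, and Dusp1 was 8.62 with the nearest at 10.46. WT vehicle replicate 2, the array with low Cybb and a narrow range of values, had Jun at 6.69 with the nearest at 8.21. Ier2 was 5.71 on it with the nearest at 7.06. In KO Ang II cells Ier3 was high on replicate 4, 7.09 with the nearest at 6.09. The other members on that array had deviations from their group means between -0.47 and 0.07.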

How the results depend on the processing

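Of 830 member differences recomputed under settings other than left-out arrays, 6 calls were lost, 7 gained and none reversed; 44 changes of sign were among differences past the threshold in neither fit. With an array left out, 720 were recomputed: 4 calls were lost, 6 gained, and 56 such sign changes occurred. The number of members called with Hyd/HCTZ against Ang II alone, 7, was 4 after quantile normalization (beside 41.5% of all genes) and 4 to 9 with each array left out. KO against WT cells with Ang II went to 2 members within array set 1 (beside 0.153% of all genes). Fewer arrays entered there, and WT Ang II replicate 3 did not. The cause was not tested. With the replicate number as a block 6 members were called with Hyd/HCTZ, beside 43.6% of all genes, Dusp1 being lost (0.93, limma adjusted p = 0.0524), and the block changed no other member's call. Of all genes called with Hyd/HCTZ, 4261 were higher and 1242 lower as deposited; the share that was higher was 48.6% relative to the shift and 57.2% after quantile normalization. In KO against WT vehicle cells, array weights called 1437 genes and leaving out WT vehicle replicate 2 called 68, beside 1, with 0 members in each. Groups of 3 to 7 arrays, values without detection calls and array sets that follow the groups limit what these differences show.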
